A study of Mus musculus with 12 samples.

Results

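The ATP-binding cassette (ABC) transporter genes of the embryonic mouse heart were taken as every gene symbol of the deposited table that starts with Abc, continues with a subfamily letter from a to g and a number, and may end in 1 further letter. This gave 49 genes of 20368, with 15 members in subfamily A, 10 in B, 10 in C, 4 in D, 1 in E, 3 in F and 6 in G. RNA-seq had been done on CD1 hearts of *Mesp1Cre*;*Hira*+/fl embryos, the Cre controls, and of *Mesp1Cre*;*Hira*-/fl embryos, the mutants, at E11.5 and at E12.5, with 3 libraries in each of the 4 groups and 12 in all. HIRA is a histone chaperone that places the H3.3 variant on chromatin outside replication. Every embryo carried *Mesp1Cre* and 1 floxed *Hira* allele, and the second allele was wild type in controls and null in mutants. Control hearts therefore kept 1 intact allele at most in cells where Cre had acted, and *Hira* was heterozygous from the start in every mutant cell, Cre having acted only in descendants of *Mesp1*-expressing mesoderm. *Abca4* had been singled out because it was higher in mutants, so its differences between genotypes are given as a description without a test. The other members were chosen by name alone.

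ABC proteins bind and hydrolyse ATP with a pair of nucleotide-binding domains, and most couple this to the movement of a substrate across a membrane. Subfamily A moves lipids, B holds peptide, drug, bile and mitochondrial transporters, C holds exporters of organic anions and the sulphonylurea receptors of potassium channels, and D serves peroxisomes and lysosomes. Subfamilies E and F have no membrane-spanning part and act on ribosomes and translation, and G moves sterols, urate and drugs. In the heart the sulphonylurea receptors are known best, as the regulatory subunits that tie ATP-sensitive potassium channels to the energy state of the cell.

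Library totals on the genes of the deposited comparisons ran from 11994148 to 17483982 counts. The library of E11.5 mutant 3 was the shallowest and stood apart on the first principal component of all genes (score -38, 34.1% of the variance, with the other 11 libraries between -21.3 and 26.8). Counts of 4 Y-linked genes called 3 of 3 E11.5 controls male, against 1 of 3 libraries in each of the other groups. The labels do not say whether a library was 1 heart or a pool, or which embryos were littermates, so p-values measure the spread between libraries and no more. *Hira* was at a change of -0.27 on the log2 scale (SE 0.14, adjusted p = 0.589) in E11.5 mutants and -0.01 (SE 0.12, adjusted p = 0.961) at E12.5, in counts over the whole gene, which do not separate the floxed part. In whole hearts fewer cells of a type and less RNA per cell cannot be told apart. The cardiomyocyte markers checked (6 genes) summed to between 3820 and 5800 RPKM in every library.

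Levels are given as RPKM, reads scaled to gene length and library depth, computed from whole counts that were recovered from the deposited values. Of the 49 members, 30 reached a mean of 0.5 RPKM over the 12 libraries, 15 reached 5 RPKM, and 19 stayed below 0.5 RPKM. The member just inside this limit was *Abcb9* (0.541 RPKM) and the member just outside it was *Abcb1b* (0.479 RPKM).

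**Figure D1:**
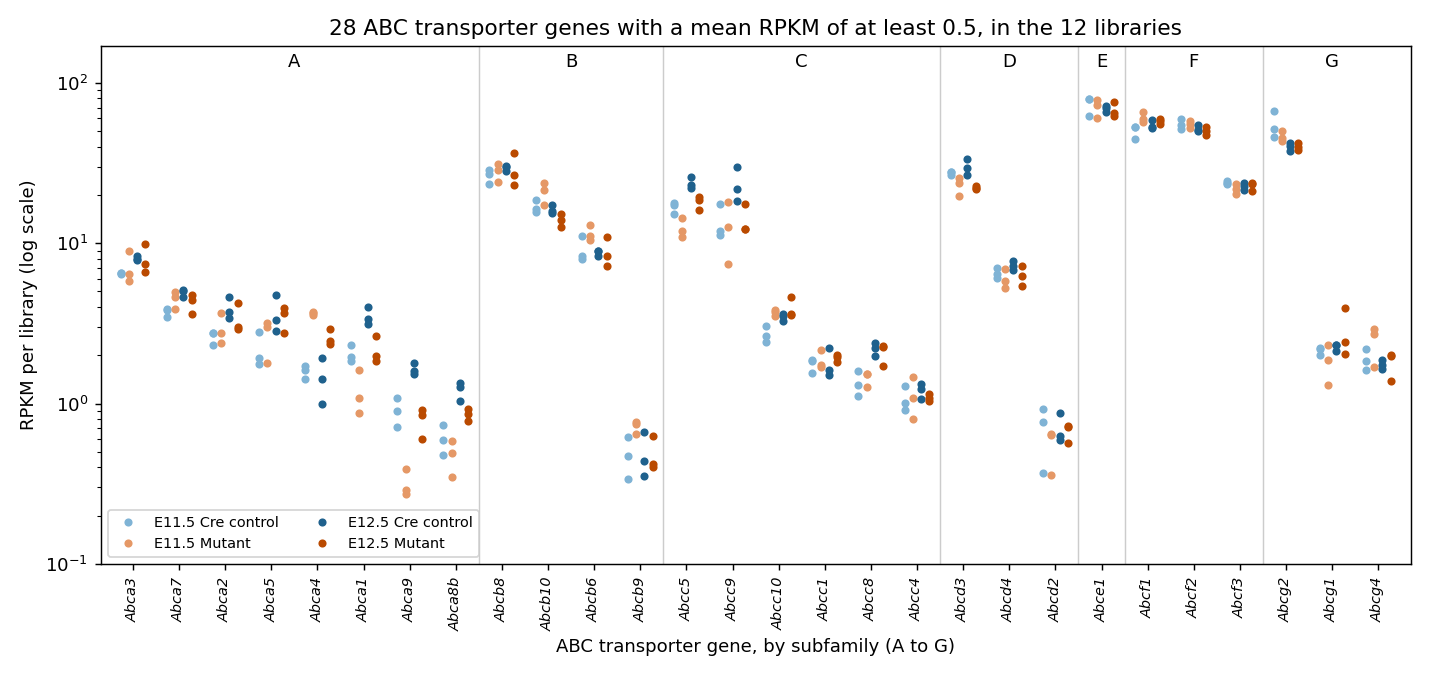
RPKM of 28 of the 30 ABC transporter genes with a mean of at least 0.5 RPKM, on a log axis, with 1 point per library and colours for the 4 groups, ordered by subfamily and then by mean level. *Abce1*, *Abcf1*, *Abcf2* and *Abcg2* are the 4 highest, and each member of subfamily A stands at 9.84 RPKM or below.

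The 3 highest members were those that work on ribosomes and translation, not on membranes. *Abce1*, which splits ribosomes after termination, stood at 61.9, 79.6 and 78.9 RPKM in controls and 72.4, 78.2 and 60.4 RPKM in mutants at E11.5, and at 71.4, 65.6 and 69.9 RPKM and 65.2, 76.1 and 62.3 RPKM in the same order at E12.5. *Abcf1*, which binds initiation factor eIF2, stood at 52.8, 53.3 and 44.9 RPKM in controls and 59.5, 56.9 and 65.6 RPKM in mutants at E11.5, and at 52, 58.9 and 53.2 RPKM and 57.9, 55.2 and 59.3 RPKM in the same order at E12.5. All 4 groups of *Abce1* overlapped, and the E11.5 groups of *Abcf1* did not, with the mutants higher. *Abcf2* followed with a mean of 53.2 RPKM, and *Abcf3* with 22.8 RPKM. The E and F genes had an adjusted p above 0.05 in each of the 6 comparisons, with log2 fold changes between -0.13 and 0.27 for genotype and stage.

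*Abcg2*, an efflux pump for porphyrins, urate and drugs, was the highest membrane transporter at a mean of 45.3 RPKM. It stood at 45.9, 51.6 and 66.8 RPKM in controls and 45.3, 49.8 and 43.5 RPKM in mutants at E11.5, and at 40.5, 37.7 and 42.3 RPKM and 38.4, 42.4 and 39.9 RPKM in the same order at E12.5. The E12.5 libraries of each genotype lay below its E11.5 libraries, with a change of -0.45 on the log2 scale (SE 0.13, adjusted p = 0.0562) in controls and -0.19 (SE 0.10, adjusted p = 0.638) in mutants. The other G genes at or above 0.5 RPKM were *Abcg1*, which passes cholesterol to lipoproteins, at a mean of 2.25 RPKM, and *Abcg4* at 1.97 RPKM. *Abcg3*, *Abcg5* and *Abcg8* stayed at or below 0.21 RPKM on average, the last 2 being the subunits of the intestinal and biliary sterol pump. *Abcg5* and *Abcg8* overlap by 6710 bases on opposite strands, and since the use of strand in counting is not given in the sources used here, their few reads cannot be told apart.

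In subfamily B, the members of the mitochondrion were the high ones. *Abcb8*, of the inner mitochondrial membrane, stood at 28.5, 27.2 and 23.5 RPKM in controls and 24, 31 and 28.5 RPKM in mutants at E11.5, and at 30.2, 29.9 and 28.3 RPKM and 26.8, 23 and 36.7 RPKM in the same order at E12.5, and all 4 groups overlapped. *Abcb10*, needed for haem synthesis in red cells, had a mean of 17 RPKM, and *Abcb6*, a porphyrin transporter, 9.55 RPKM. *Abcb9*, a lysosomal peptide transporter, was at 0.541 RPKM. The P-glycoprotein genes *Abcb1a* and *Abcb1b*, the phosphatidylcholine transporter *Abcb4*, the bile salt pump *Abcb11* and *Abcb5* had means from 0.0107 to 0.479 RPKM. *Abcb1a*, *Abcb1b* and *Abcb4* lie side by side on chromosome 5. *Abcb1a* and *Abcb1b* are similar genes, and some reads could be shared between that pair in ways the deposited counts do not show.

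Subfamily C was led by *Abcc5*, an exporter of cyclic nucleotides and other organic anions, at a mean of 17.7 RPKM, and by *Abcc9*, the sulphonylurea receptor of cardiac and smooth muscle channels, at 15.9 RPKM. *Abcc10* followed at 3.44 RPKM, *Abcc1* at 1.83, *Abcc8*, the other sulphonylurea receptor, at 1.77, and *Abcc4* at 1.12. *Abcc2*, *Abcc3*, *Abcc6* and *Abcc12* had means from 0.0165 to 0.373 RPKM. Subfamily D was led by *Abcd3*, which brings fatty acids into peroxisomes, at a mean of 25.6 RPKM. *Abcd4*, of lysosomal cobalamin export, had 6.5 RPKM, and *Abcd2*, of peroxisomal fatty acid import, 0.65 RPKM.

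Subfamily A had the most members and the lowest leading gene. *Abca3*, the lipid transporter of lamellar bodies, stood at 6.48, 6.47 and 6.55 RPKM in controls and 5.84, 8.97 and 6.38 RPKM in mutants at E11.5, and at 8.29, 7.84 and 7.99 RPKM and 7.42, 6.64 and 9.84 RPKM in the same order at E12.5. The 2 control groups did not overlap, with E12.5 higher, and the 2 mutant groups overlapped each other. *Abca7* had a mean of 4.35 RPKM, *Abca2* 3.21, *Abca5* 2.98, *Abca4* 2.31, *Abca1* 2.22, *Abca9* 0.91 and *Abca8b* 0.785 RPKM. The remaining A genes, *Abca6*, *Abca8a*, *Abca12*, *Abca13*, *Abca14*, *Abca15* and *Abca17*, had means from 0.00296 to 0.159 RPKM. *Abca8b*, *Abca8a*, *Abca9*, *Abca6* and *Abca5* follow one another on chromosome 11, from position 109932190 to 110337716, and reads could be shared between these similar genes.

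*Abca4* encodes the transporter that clears retinal adducts from the disc membranes of photoreceptors. It lies on chromosome 3 of GRCm38, from position 122044443 to 122180061 on the + strand, and 229140 bases separate it from *Abcd3*. Its counts in the 12 libraries ran from 118 to 435. The level was 1.61, 1.42 and 1.72 RPKM in E11.5 controls and 3.57, 3.65 and 3.72 RPKM in E11.5 mutants. At E12.5 it was 1.92, 1.42 and 1 RPKM in controls and 2.46, 2.34 and 2.92 RPKM in mutants. The mutant libraries lay above the control libraries at each stage, and the 3 E11.5 mutants above all the others. The group means were 1.58 ± 0.155 and 3.65 ± 0.0714 RPKM (SD, n = 3) at E11.5 and 1.45 ± 0.461 and 2.58 ± 0.31 RPKM (SD, n = 3) at E12.5. These differences, a change of 1.20 on the log2 scale (SE 0.14) at E11.5, 0.85 (SE 0.20) at E12.5 and 1.02 (SE 0.14) adjusted for stage, chose the gene. The gene overlaps 2 annotated pseudogenes on the opposite strand, and the larger of them shares 55018 bases with it. The 6 photoreceptor and pigment epithelium markers checked summed to between 0.471 and 1.17 RPKM in any library, with *Rpe65* at 1 count in all 12.

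The sequences before the start sites of *Abca4* and of the 3 members called in E12.5 mutants are shown because these genes carry the genotype result, and were searched for 4 short motifs. They are the 250 bases upstream of the start site in RefSeq on GRCm38.p6, read 5′ to 3′ on the strand of the gene, at chr3:122044210-122044459 (+) for *Abca4*, chr4:53159896-53160145 (-) for *Abca1*, chr11:110168154-110168403 (-) for *Abca9* and chr6:142702275-142702524 (-) for *Abcc9*. Capitals mark the repeat GAGAGA and AAGTG, the core of the site of the cardiac factor NKX2.5, on either strand, and no window held both.
Abca4: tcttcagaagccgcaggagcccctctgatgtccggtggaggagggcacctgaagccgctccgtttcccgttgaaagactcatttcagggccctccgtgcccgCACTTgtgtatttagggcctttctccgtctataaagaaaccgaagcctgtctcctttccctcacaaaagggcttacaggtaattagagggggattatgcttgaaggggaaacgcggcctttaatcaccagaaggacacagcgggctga
Abca1: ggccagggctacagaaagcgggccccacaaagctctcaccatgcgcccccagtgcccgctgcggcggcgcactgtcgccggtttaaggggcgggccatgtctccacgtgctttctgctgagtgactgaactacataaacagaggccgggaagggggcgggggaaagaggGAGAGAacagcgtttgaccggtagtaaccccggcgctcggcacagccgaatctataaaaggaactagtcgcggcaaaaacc
Abca9: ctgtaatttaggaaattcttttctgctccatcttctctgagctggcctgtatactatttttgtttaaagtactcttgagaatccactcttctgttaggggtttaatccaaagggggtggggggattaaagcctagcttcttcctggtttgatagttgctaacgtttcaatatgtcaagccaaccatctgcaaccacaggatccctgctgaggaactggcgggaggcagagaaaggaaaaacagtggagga
Abcc9: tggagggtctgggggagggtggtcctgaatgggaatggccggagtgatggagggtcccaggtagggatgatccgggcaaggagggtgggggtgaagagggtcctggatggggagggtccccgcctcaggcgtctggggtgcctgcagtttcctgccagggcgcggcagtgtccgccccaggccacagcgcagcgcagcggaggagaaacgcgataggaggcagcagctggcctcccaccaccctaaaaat

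GAGAGA stood in the window of *Abca1* alone among these 4 and AAGTG in that of *Abca4* alone. Of the 37 members with a promoter in the table, 4 held GAGAGA and 15 held AAGTG in at least 1 of their windows, beside 20.2% and 40.7% of all 32851 windows. The nuclear receptor site AGGTCA was in 5 of the 37 members and in 14% of windows, and the TATAAA box in 5 members and 12.4% of windows. The TATAAA box was in the windows of *Abca4* and *Abca1*, and the 4 windows had a GC content of 54.4% (*Abca4*), 61.6% (*Abca1*), 44.4% (*Abca9*) and 66.8% (*Abcc9*). A match to so few letters describes the sequence and is not a bound site.

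The first comparison asked which members differed between mutant and control hearts at E11.5. A member was called when its Benjamini-Hochberg adjusted p over all genes tested was at most 0.05 and its fold change at least 1.5. *Abca4* is left out of the counts of all comparisons between genotypes, since it was chosen on them. Of the other 28 members tested at E11.5, 0 were called with edgeR, beside 0.115% of all genes, 0.0492% higher and 0.0656% lower, at this fold or any. DESeq2 called 1 of the 28, *Abca9*, and 248 of all genes, where edgeR called 14 of 12197. Among the 28, 5 had an unadjusted p under 0.05, where 10.3% of all genes had. The median log2 fold change was 0.04 over the members and -0.01 over all genes. The libraries of the 2 genotypes did not overlap for 8 members, 3 higher and 5 lower in mutants, beside 16.3% of all genes, 7.73% higher and 8.62% lower.

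*Abca9*, a lipid transporter gene of the chromosome 11 cluster, had the largest negative value at E11.5. Its level was 1.09, 0.897 and 0.717 RPKM in controls and 0.389, 0.271 and 0.288 RPKM in mutants. Each mutant library lay below each control library, and its log2 value was -1.51 (SE 0.29, adjusted p = 0.096). DESeq2 gave an adjusted p of 0.00268. The gene passed the limit of 0.5 RPKM at this stage only through its controls, with means of 0.903 RPKM in controls and 0.316 RPKM in mutants. *Abca1*, which loads cholesterol and phospholipid onto apolipoprotein, was at 2.31, 1.95 and 1.83 RPKM in controls and at 1.61, 1.08 and 0.873 RPKM in mutants. Its groups did not overlap either, with a change of -0.77 on the log2 scale (SE 0.23, adjusted p = 0.261). *Abcc5* was at 17.4, 15.2 and 17.9 RPKM in controls and 14.3, 11 and 11.9 RPKM in mutants, with no overlap and a change of -0.44 on the log2 scale (SE 0.14, adjusted p = 0.285). *Abcd3* (log2 fold change -0.26, SE 0.13, adjusted p = 0.562) and *Abcb1b* (log2 fold change -1.43, SE 0.46, adjusted p = 0.298) were the other 2 members without overlap and lower in mutants. *Abcb1b* entered this test through its controls at 0.617, 0.535 and 1.63 RPKM, as its mutants stood at 0.295, 0.392 and 0.337 RPKM. *Abcc10* (log2 fold change 0.45, SE 0.15, adjusted p = 0.319), *Abcf1* (log2 fold change 0.27, SE 0.13, adjusted p = 0.517) and *Abcb9* (log2 fold change 0.60, SE 0.33, adjusted p = 0.613) were without overlap and higher in mutants, and *Abcb9* passed the limit of 0.5 RPKM only through its mutants (means 0.476 and 0.721 RPKM).

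Sex was uneven at E11.5, with 3 of 3 controls and 1 of 3 mutants male. No E11.5 control was female, so with sex as a covariate the genotype difference rests on E11.5 mutant 3 alone against the 3 controls. This is the shallowest library and the one that stood apart, so the fit cannot tell sex from the spread of that library. Several values moved by over 1.5 times. The log2 value of *Abca1* was then -1.22, *Abcd3* -0.49, *Abcg1* -0.71 and *Abcc9* -0.87. *Abca9* stayed near its value, at -1.64, as did *Abcc5*, at -0.50.

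At E12.5 the members that passed were lower in mutants. Of 26 members tested, 3 were called, *Abca1*, *Abca9* and *Abcc9*, where 3.03% of all genes were called, 1.64% higher and 1.39% lower. With no fold threshold 5 members passed, *Abcc5* and *Abcd3* being the further 2, where 5.12% of all genes passed, 2.83% higher and 2.29% lower. An unadjusted p under 0.05 was found for 6 members and 21.3% of all genes. The median log2 fold change was -0.05 over the members and -0.00 over all genes. The libraries of the genotypes did not overlap for 7 members, each lower in mutants, beside 26.4% of all genes, 12.1% higher and 14.2% lower.

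**Figure D2:**
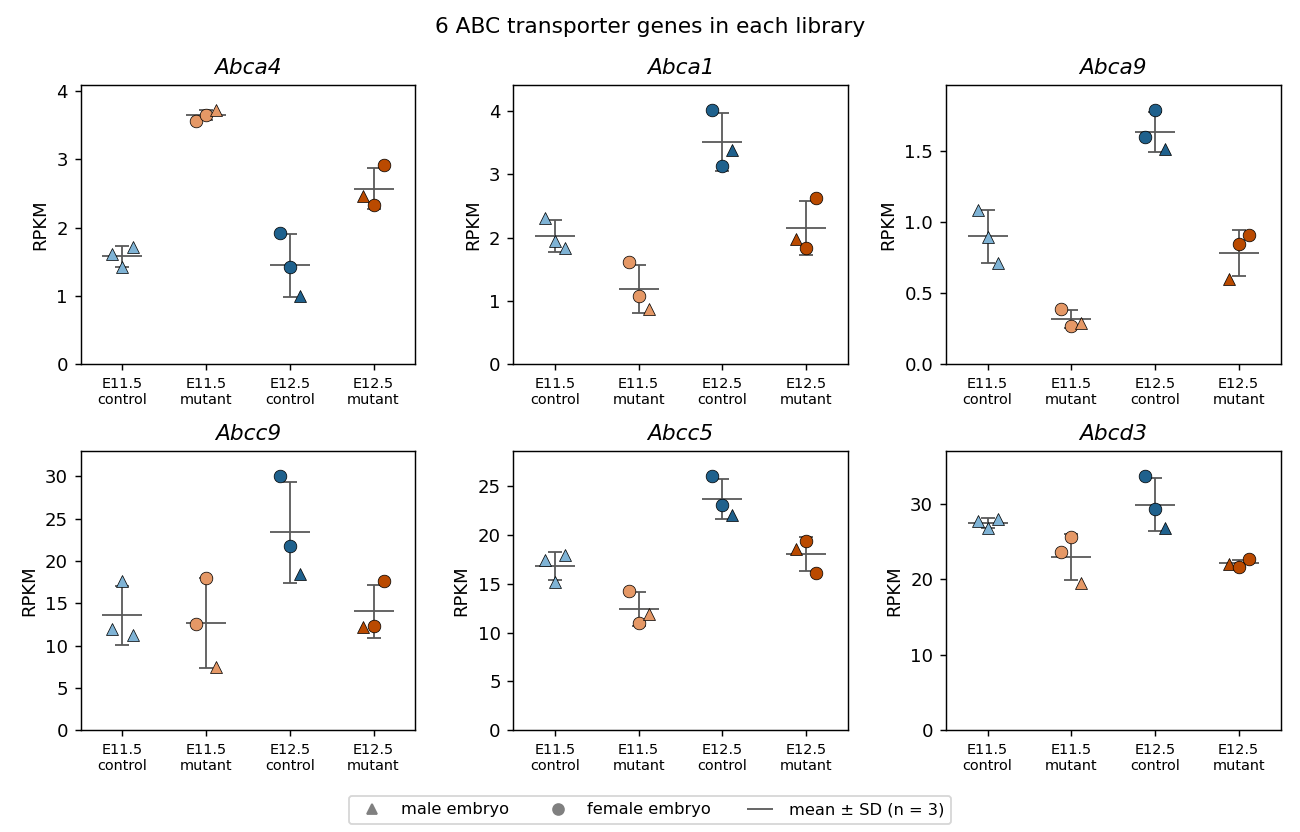
RPKM of 6 ABC transporter genes in each library (y axes start at 0), with triangles for male and circles for female embryos and bars for the group mean ± SD (n = 3). At E12.5 the mutant libraries lie above the controls for *Abca4* (2.34 to 2.92 against 1 to 1.92 RPKM) and below them for the other 5 genes.

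*Abca9* fell the most. It stood at 1.6, 1.79 and 1.52 RPKM in E12.5 controls and at 0.598, 0.847 and 0.908 RPKM in E12.5 mutants, so the groups did not overlap. It fell by 1.04 on the log2 scale (SE 0.19, adjusted p = 0.0113), and it stayed called when any of the 6 libraries was left out, with adjusted p from 0.0151 to 0.0487. *Abca1* stood at 4.01, 3.13 and 3.39 RPKM in controls and at 1.98, 1.83 and 2.63 RPKM in mutants, again without overlap. It fell by 0.70 on the log2 scale (SE 0.14, adjusted p = 0.0186). Its call was lost without control 1 (adjusted p = 0.0797), mutant 1 (0.0713) or mutant 2 (0.061).

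*Abcc9* fell at E12.5 from 30, 21.8 and 18.4 RPKM in controls to 12.2, 12.3 and 17.6 RPKM in mutants. The lowest control and the highest mutant library were close, and the fold change on the log2 scale was -0.73 (SE 0.18, adjusted p = 0.0391). The call was lost with DESeq2 (adjusted p = 0.0945) and without control 1 (0.138), control 2 (0.0748), mutant 1 (0.136) or mutant 2 (0.119). At E11.5 the same gene stood at 11.9, 17.6 and 11.3 RPKM in controls and 12.6, 18 and 7.43 RPKM in mutants, with a change of -0.10 on the log2 scale (SE 0.30, adjusted p = 0.959). With sex as a covariate, which leaves E11.5 mutant 3 alone against the controls, the change was -0.87. *Abcc9* shares 11868 bases with the antisense gene 5330439B14Rik, and reads of the 2 genes cannot be told apart without the strand.

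*Abcc5* and *Abcd3* passed the p-value threshold at E12.5 with falls smaller than 1.5-fold. *Abcc5* stood at 26, 23.1 and 22 RPKM in controls and 18.6, 19.4 and 16.1 RPKM in mutants, a change of -0.38 on the log2 scale (SE 0.09, adjusted p = 0.0391). *Abcd3* stood at 33.7, 29.3 and 26.8 RPKM in controls and 22, 21.7 and 22.7 RPKM in mutants, a change of -0.42 on the log2 scale (SE 0.09, adjusted p = 0.0218). For each of the 2 genes the mutants lay below all 3 controls. Leaving out 1 library moved the adjusted p of *Abcc5* to between 0.0372 and 0.133, above 0.05 in each case except without control 3, and that of *Abcd3* to between 0.0134 and 0.0704, above 0.05 in each case except without control 3 or mutant 3. *Abca8b* (log2 fold change -0.49, SE 0.18, adjusted p = 0.144) and *Abcb10* (log2 fold change -0.20, SE 0.09, adjusted p = 0.235) were the other members whose mutants lay below the controls without overlap.

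**Figure D3:**
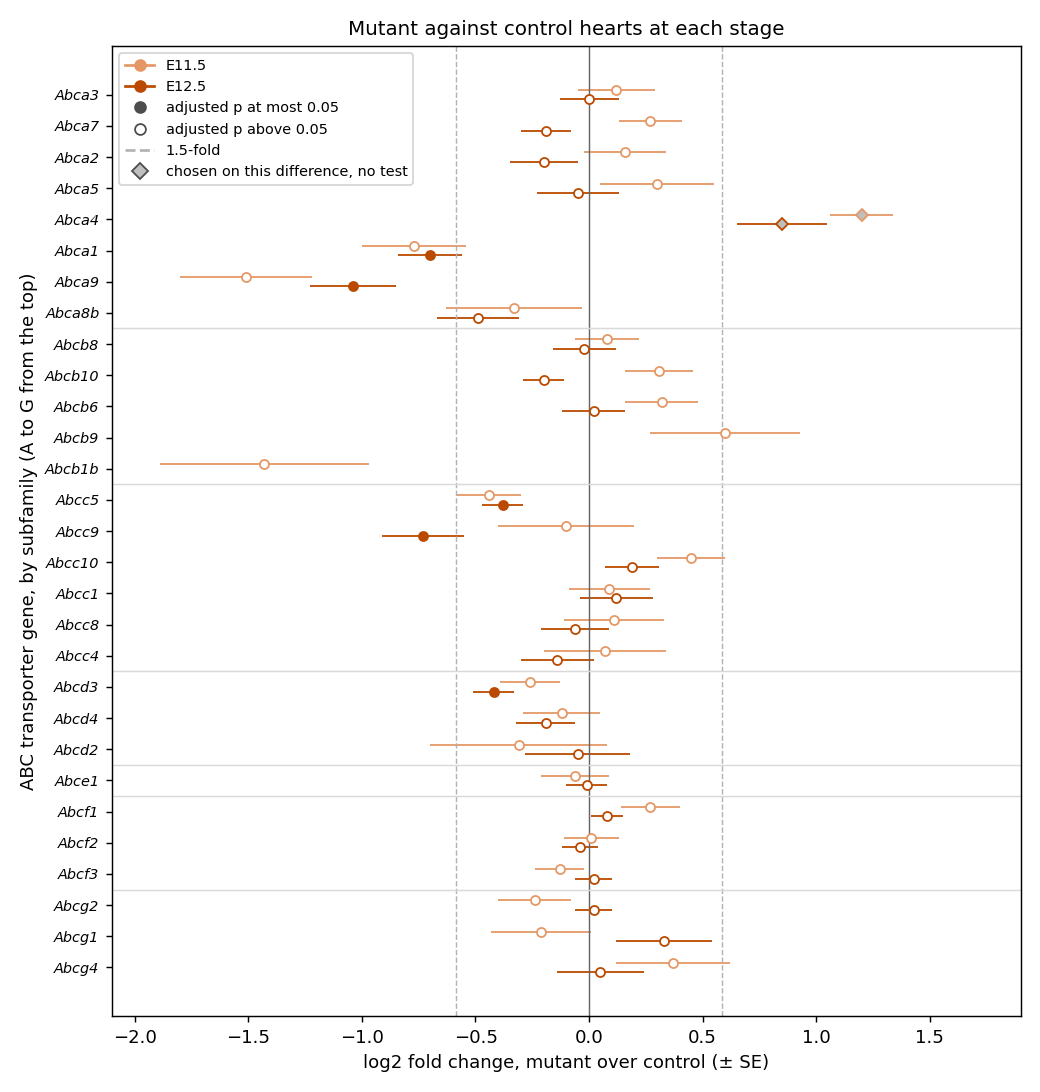
Log2 fold change of mutant over control hearts (x axis, ± SE) for the ABC transporter genes tested at E11.5 or E12.5, by subfamily, with filled points for an adjusted p of at most 0.05, open points above it, grey diamonds for *Abca4*, which was chosen on these differences and is drawn as a description, and dashed lines at 1.5-fold. Most points of both stages lie within the dashed lines, and *Abca9*, *Abca1* and *Abcc9* lie to the left of them at E12.5.

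Sex was even at E12.5, with 1 male library of 3 in each genotype. With sex as a covariate the same 3 members were called, with adjusted p of 0.00652 for *Abca9*, 0.0188 for *Abca1* and 0.0175 for *Abcc9*. Within sexes *Abca1* had means of 3.57 and 2.23 RPKM in the 2 female controls and 2 female mutants, and 3.39 and 1.98 RPKM in the single male ones. For a gene whose 6 libraries do not overlap, such subsets are bound to point the same way.

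Markers of other cell types moved with the genotype. The 7 macrophage markers found in the table summed to 14.3 to 33.5 RPKM in E11.5 controls and 5.91 to 7.82 RPKM in E11.5 mutants, and to 30.5 to 43.6 and 20.4 to 26.1 RPKM at E12.5, so the groups did not overlap at either stage, in the same direction as *Abca1* and *Abca9*. Of 6 macrophage markers tested, 1 was called lower at E11.5 and 3 at E12.5, and none of the 7 was at 0 in all libraries. The 7 erythroid markers summed to 4810 to 7310 RPKM in E12.5 controls and 2690 to 3420 RPKM in E12.5 mutants, with 5 of 6 tested called lower, and overlapped at E11.5 (5000 to 6200 and 5000 to 6010 RPKM). The 6 epicardial markers summed to 209 to 330 RPKM in E11.5 controls and 138 to 176 RPKM in E11.5 mutants, and overlapped at E12.5. At E12.5 1 of them was called, *Msln*, and it was higher in mutants (log2 fold change 1.03, adjusted p = 0.0128). The 6 hepatocyte markers overlapped at both stages, with sums at E12.5 of 2.02 to 3.08 RPKM in controls and 2.14 to 25.2 RPKM in mutants. The 6 endothelial markers summed to 270 to 320 RPKM in E11.5 controls, 318 to 439 RPKM in mutants of that stage, and 336 to 342 and 325 to 386 RPKM at E12.5. The part of these cell types in the values of *Abca1*, *Abca9*, *Abcc9*, *Abcc5* and *Abcd3* was not tested.

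Fitting both stages together, with stage as a term, gave the average genotype difference over the stages. Of 27 members tested, 2 were called, *Abca9* and *Abca1*, both lower in mutants, where 3.19% of all genes were called, 1.75% higher and 1.43% lower. An unadjusted p under 0.05 was found for 7 members and 19.4% of all genes. *Abca9* fell by 1.26 on the log2 scale (SE 0.17, adjusted p = 0.000679) and *Abca1* by 0.74 (SE 0.14, adjusted p = 0.00691). With no fold threshold *Abcc5* (log2 fold change -0.42, SE 0.08, adjusted p = 0.00759) and *Abcd3* (log2 fold change -0.35, SE 0.08, adjusted p = 0.0164) passed too, making 4 members, where 6.82% of all genes passed, 3.44% higher and 3.38% lower. *Abcc9* did not (log2 fold change -0.42, SE 0.21, adjusted p = 0.302), although it did with sex as a covariate (log2 fold change -0.65, SE 0.16, adjusted p = 0.0298). At E11.5 the sex-adjusted value leans on mutant 3, the only male mutant, where *Abcc9* was at 7.43 RPKM beside 12.6 and 18 RPKM in the other mutants. The 2 calls were the same when each of the 12 libraries was left out in turn, and *Abcd3* went above an adjusted p of 0.05 without E12.5 mutant 1 (0.0524).

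Whether the genotype difference itself changed between the stages was tested over all 12 libraries. Of 27 members 0 passed with edgeR and 0 with DESeq2, and 2 had an unadjusted p under 0.05, *Abcb10* and *Abca7*, where 4.5% of all genes had and 0% passed. *Abcb10* differed by -0.52 (SE 0.18, adjusted p = 0.853) and *Abca7* by -0.47 (SE 0.18, adjusted p = 0.954) on the log2 scale. For *Abcc9*, called at E12.5 and not at E11.5, the difference between the stages was -0.64 (SE 0.40, adjusted p = 0.954), so a change between stages was not shown. With sex as a covariate it was -0.17 (SE 0.34, adjusted p = 0.999), a value that leans on E11.5 mutant 3, the only male E11.5 mutant.

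Between E11.5 and E12.5, the control hearts gained expression of several members of subfamilies A and C. Of 28 members tested, 6 were called, each higher at E12.5, namely *Abca1*, *Abca5*, *Abca8b*, *Abca9*, *Abcc8* and *Abcc9*, where 5.31% of all genes were called, 2.82% higher and 2.49% lower. With no fold threshold 9 passed, again each higher, with *Abca2*, *Abca7* and *Abcc5* added, where 11.3% of all genes passed, 5.5% higher and 5.84% lower. An unadjusted p under 0.05 was found for 13 members and 32.7% of all genes. The median log2 fold change was 0.14 over the members, 0.66 over the 8 tested members of subfamily A, 0.43 over the 6 of C and 0.01 over all genes. The libraries of the stages did not overlap for 13 members, 11 higher and 2 lower at E12.5, beside 37.4% of all genes, 18.3% higher and 19.1% lower. Of the 2 lower, *Abcb1b* passed the limit of 0.5 RPKM only through its E11.5 controls (means 0.928 and 0.363 RPKM).

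*Abca8b* rose from 0.476, 0.732 and 0.591 RPKM to 1.26, 1.03 and 1.35 RPKM in controls, by 1.02 on the log2 scale (SE 0.23, adjusted p = 0.0288). *Abca9* rose from 0.903 ± 0.189 to 1.64 ± 0.139 RPKM (SD, n = 3), by 0.86 (SE 0.19, adjusted p = 0.0298), and *Abca1* from 2.03 ± 0.247 to 3.51 ± 0.448 RPKM, by 0.79 (SE 0.13, adjusted p = 0.0125). *Abca5*, a lysosomal member of the same cluster, rose from 2.79, 1.77 and 1.93 RPKM to 4.75, 2.83 and 3.3 RPKM, by 0.74 (SE 0.21, adjusted p = 0.0497). Every E12.5 control of these 4 genes lay above every E11.5 control, and the lowest E12.5 library of *Abca5* was close to its highest E11.5 library.

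Each of the sulphonylurea receptor genes was higher in E12.5 than in E11.5 controls. *Abcc8* went from 1.12, 1.59 and 1.3 RPKM to 1.97, 2.22 and 2.4 RPKM, by 0.71 on the log2 scale (SE 0.18, adjusted p = 0.0367), and *Abcc9* by 0.78 (SE 0.20, adjusted p = 0.0356). *Abcc9* was the more abundant of the pair in every library. The potassium channel gene *Kcnj8*, whose product pairs with the *Abcc9* product, lies 16505 bases from it, and *Kcnj11* lies 4625 bases from *Abcc8*. Neither channel gene was called in a genotype comparison it entered, and *Kcnj8* was too low to be tested at E11.5. As group means, *Kcnj8* had 0.679 RPKM in controls and 0.275 in mutants at E11.5 and 1.29 and 1.02 RPKM at E12.5, and *Kcnj11* 5.69, 6.51, 7.16 and 6.61 RPKM in that order.

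The stage comparison in controls runs along with sex, because 3 of 3 E11.5 controls and 1 of 3 E12.5 controls were male. With sex as a covariate the difference therefore rests on the single male E12.5 control against the 3 E11.5 controls. A loss of calls in such a fit cannot be laid to sex, so its calls are not given. The 6 members then had log2 fold changes from 0.44 to 1.18. Among males, *Abcc9* stood at 18.4 RPKM in the single E12.5 control and at a mean of 13.6 RPKM in the 3 E11.5 controls, and *Abca8b* at 1.35 and 0.6 RPKM. There were no female E11.5 controls, so sex and stage cannot be fully told apart here. The count of 6 also moved with the libraries, to 0 without E12.5 control 1, 1 without E12.5 control 2 or E11.5 control 3, 2 without E11.5 control 1, and 7 without E11.5 control 2.

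Markers of cell types moved between the stages in controls too. Of the 6 cardiomyocyte markers 1 was called higher at E12.5, *Ryr2*, and the sums were 3820 to 3990 RPKM at E11.5 and 4450 to 4900 RPKM at E12.5. Of 6 macrophage markers tested 1 was called higher, *Mrc1*, and the sums of 14.3 to 33.5 and 30.5 to 43.6 RPKM overlapped. Of the 6 epicardial markers 1 was called higher and 3 lower, and of 6 erythroid markers tested 1 higher and 2 lower. The part of these cell types in the rise of the 6 members was not tested.

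In mutants 0 of 28 members were called between the stages with edgeR, where 0.523% of all genes were, 0.286% higher and 0.237% lower, at this fold or any. Of these members, 7 had an unadjusted p under 0.05, where 9.13% of all genes had. DESeq2 called 1, *Abca9*, and 226 of all genes, where edgeR called 64. *Abca9* passed the limit of 0.5 RPKM here only through its E12.5 libraries, with means of 0.316 RPKM at E11.5 and 0.785 RPKM at E12.5. *Abca9* went from 0.389, 0.271 and 0.288 RPKM to 0.598, 0.847 and 0.908 RPKM, with a change of 1.31 on the log2 scale (SE 0.28, adjusted p = 0.11). *Abca1* had 0.85 (SE 0.25, adjusted p = 0.276), *Abca8b* 0.85 (SE 0.25, adjusted p = 0.282), *Abcc5* 0.55 (SE 0.14, adjusted p = 0.189) and *Abcc8* 0.54 (SE 0.18, adjusted p = 0.384). The haem gene *Abcb10* had -0.58 (SE 0.15, adjusted p = 0.209) and *Abca4* -0.49 (SE 0.13, adjusted p = 0.216). *Abcc9* had 0.14 (SE 0.29, adjusted p = 0.897). *Abca4* in controls had -0.13 (SE 0.22, adjusted p = 0.708). The mutant libraries of the 2 stages did not overlap for 9 members, 5 higher and 4 lower at E12.5, beside 17.4% of all genes, 8.96% higher and 8.46% lower. Among these 9, *Abca8b* also passed 0.5 RPKM only through E12.5 (means 0.472 and 0.855 RPKM), and *Abcb9* only through E11.5 (means 0.721 and 0.483 RPKM). Without E11.5 mutant 3, the library that stands apart, 1 member was called between the stages, *Abcb10*.

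**Figure D4:**
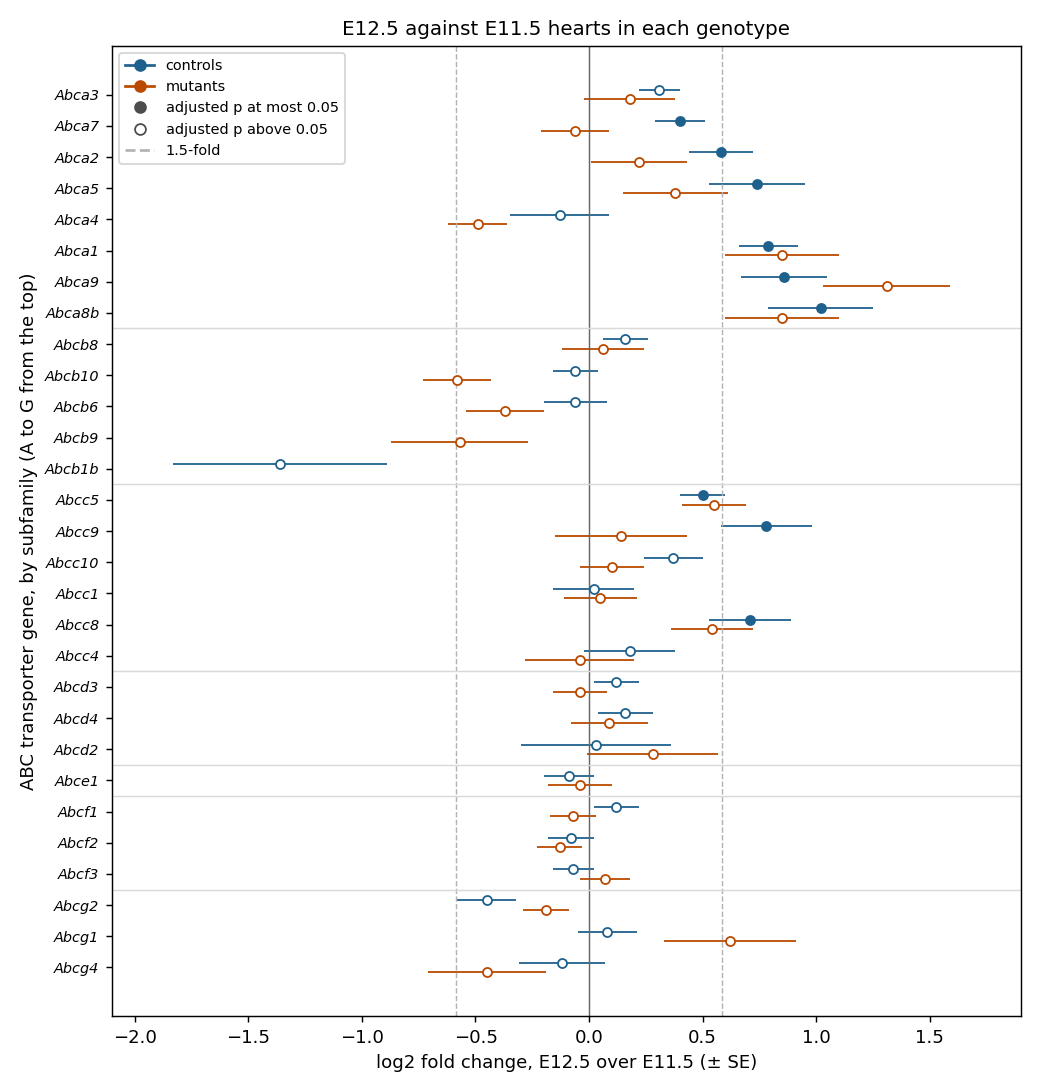
Log2 fold change of E12.5 over E11.5 hearts (x axis, ± SE) for the ABC transporter genes tested in controls or mutants, by subfamily, with filled points for an adjusted p of at most 0.05, open points above it, and dashed lines at 1.5-fold. The filled points are the 9 members higher in E12.5 controls, and the mutant points of these 9 are open and run from -0.06 (*Abca7*) to 1.31 (*Abca9*).

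The 19 members below 0.5 RPKM held at most 101 counts in any library, and 10 of them had no more than 50 counts over all 12 libraries. In a fit without the filter on low values 8 members were called between the stages in controls, the further 2 being *Abca8a* and *Abcb1b*, where 4.98% of all genes were called. *Abca8a*, of the chromosome 11 cluster, had 0 counts in each E11.5 control and 7, 6 and 4 counts in E12.5 controls, so that its call is one against a group at 0, and *Abcb1b* stood at 0.617, 0.535 and 1.63 RPKM in E11.5 controls and 0.516, 0.234 and 0.34 RPKM in E12.5 controls.

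Genes that work with ABC proteins were tested gene by gene and their calls counted by list. No list was tested as a whole. Of the 20 genes of sterol efflux and its LXR control, 0 were called in E11.5 or E12.5 mutants or adjusted for stage, with medians of -0.00, 0.06 and 0.05, and *Nr1h3*, *Nr1h2* and *Rxra*, the LXR and RXR receptors known to drive *Abca1*, were among them. *Nr1h3* was at 0.984 and 1.07 RPKM in E11.5 controls and mutants and at 1.28 and 1.35 RPKM at E12.5, with adjusted p of 0.964 and 0.887. With no fold threshold 2 of the 20 passed at E12.5, the cholesterol exporter of lysosomes *Npc1* (log2 fold change -0.46, adjusted p = 0.013) and the lipase *Lpl* (-0.34, adjusted p = 0.0425), and 1 adjusted for stage, *Insig1* (0.48, adjusted p = 0.0152). Of the partner genes, 11 were tested at E11.5 and 12 at E12.5 and adjusted for stage, and 0 were called. With no fold threshold 1 passed at E12.5, *Fech*, the last enzyme of haem synthesis (log2 fold change -0.45, adjusted p = 0.0154), and 1 adjusted for stage, *Cyp27a1* (0.36, adjusted p = 0.0265). With no fold threshold the shares of all genes were 5.12% and 6.82%, as above, and at 1.5-fold they were 3.03% and 3.19%. Of the 10 xenobiotic response genes tested out of 15, 1 was called at E12.5, where 3.03% of all genes were. This was *Gsta4*, a glutathione transferase, at 86.1 RPKM in controls and 134 RPKM in mutants (log2 fold change 0.65, adjusted p = 0.0044). Of the 3 ABC proteins whose symbols fall outside the naming rule, the chloride channel *Cftr* and the peptide transporters *Tap1* and *Tap2*, none reached the level for a test between genotypes.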

How the data were processed

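RNA-seq libraries were aligned with Bowtie and tested with DESeq on mm10, per the submitters' processing notes. The deposited per-library values, named RPKM by the authors, carried neither a per-length nor a per-million scale and so were entered as a score, each a whole count times a gene length and a library factor. The authors' comparison tables gave group averages of counts (entered as estimated counts), from which the library factors were solved, and their fold changes and p-values were not used. The counts so recovered, and not the averages, were tested, and came out whole for 17827 genes, within 1.43e-09, and 591 of 944 genes outside the comparisons were recovered too. Genes with a mean of at least 0.5 RPKM were tested with edgeR 4.0.16 (quasi-likelihood, TMM factors, Benjamini-Hochberg adjustment, R 4.3.3), against DESeq2 1.42.0 and limma 3.58.1 as alternatives. On simulated data for E12.5 (12253 genes), 51 of 67 genes changed 1.5-fold and 58 of 67 changed 2-fold were recovered, and for E11.5 (12195 genes) 14 and 54 of 67. Recovery here meant an adjusted p of at most 0.05 at any fold. It does not measure how often the calling rule, with its 1.5-fold threshold, would find such genes. Values per library are given for *Abca4*, each called member and the highest member of each subfamily. The members and lists were chosen with earlier results of these data known. Results of 2 members are not reported here, in the text or the figures.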

Additional observations from a re-analysis of the deposited data

How the results depend on the processing

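*Abca4* was chosen on the genotype values and is left out of the counts of members here. Counts of called members were 0 at E11.5, 3 at E12.5 and 6 between stages in controls. They were 0 between stages in mutants, 2 adjusted for stage and 0 for the difference. A minimum of 5 RPKM gave 0, 1 and 1 for the first 3 and 0 adjusted for stage. DESeq2 gave 1 at E11.5, 2 at E12.5 and 1 between stages in mutants. Fitting all 12 libraries together gave 1 at E11.5, 1 at E12.5 and 2 in mutants. limma with a pseudocount of 0.5 or 0.1 gave 0 at E11.5 and 2 in controls. At E12.5 it gave 2 with 0.5 and 1 with 0.1. Testing with no fold threshold gave 4 adjusted for stage. Leaving out 1 library gave 0 at E11.5, 1 to 3 at E12.5, 0 to 7 in controls and 0 to 1 in mutants. It gave 2 in each case adjusted for stage and 0 in each case for the difference. At E11.5 the call with DESeq2 and the call with all 12 libraries fitted together were both *Abca9*. Over all genes DESeq2 called 248 at E11.5 in place of 14. The cause was not tested. With the replicate number as a block the members called stayed 0 at E11.5, 3 at E12.5, 6 in controls and 0 in mutants. They also stayed 2 adjusted for stage and 0 for the difference. Over all genes the block gave 96 at E11.5 and 26 between stages in mutants, in place of 14 and 64. Libraries with the same number correlated at -0.134 to 0.44, and not every pair was over 0.1, so pairing was not established. Of 267 recomputed values of single members other than *Abca4*, 55 lost the call and 0 reversed. The other 212 kept their call or lack of one (adjusted p and fold together). These 212 include all 90 values of *Abcc5* and *Abcd3*, which were not called at the start and so had no call to lose. The 55 losses therefore fell among the remaining values, those that started as calls. *Abcc5* and *Abcd3*, which passed on p alone, had an adjusted p above 0.05 in 18 of 90 recomputed values. Depth limits the 10 members with at most 50 counts in all.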
